A study of Rattus norvegicus with 14 samples.

Results

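Serum levels of miR-126 and of the paired miRNAs miR-221 and miR-222 were examined in 14 libraries of small RNA from rat pups. Rows of the deposited count table were taken where the name, without the species prefix and the arm, was miR-126a, miR-126b, miR-221 or miR-222. This gave 4 of the 375 listed mature miRNAs, namely miR-126a-3p, miR-126a-5p, miR-221-3p and miR-222-3p; miR-126b, miR-221-5p and miR-222-5p were not analysed here. All 4 passed the filter on low counts, and 357 miRNAs were tested in all. The pups were female Long Evans rats on postnatal day 8, 1 from each litter, so each library is a separate animal and litter. The 8 control pups came from dams given water with 0 ppm of PTU (propylthiouracil, which blocks thyroid hormone synthesis) and are labelled euthyroid. The 6 PTU pups came from dams given 3 ppm in drinking water and are labelled hypothyroid; the drug reached the pups through the dam, and the dams are described as mildly hypothyroid.

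miR-126 is made from an intron of Egfl7, a gene of endothelial cells, and is among the miRNAs most typical of vascular endothelium. In mice and zebrafish it is needed for vessel integrity, where its 3p strand represses Spred1 and Pik3r2, brakes on signalling by vascular endothelial growth factor. miR-221 and miR-222 are made from a shared transcript in endothelium, vascular smooth muscle and other cells, and repress the receptor gene KIT and the cell cycle inhibitor CDKN1B in human cells. Both are also known as miRNAs that are raised in human papillary thyroid carcinoma.

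The mature sequences are shown because the shared seed (bases 2 to 8, in capitals, the part that pairs with target mRNAs) is what joins miR-221-3p to miR-222-3p. They are written 5′ to 3′ and come from RefSeq, rat assembly GRCr8.
miR-126a-3p: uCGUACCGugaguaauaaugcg
miR-126a-5p: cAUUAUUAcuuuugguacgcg
miR-221-3p: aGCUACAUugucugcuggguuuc
miR-222-3p: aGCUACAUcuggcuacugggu
The first 8 bases of miR-221-3p and miR-222-3p were identical, and over the 21 positions they can be compared at, counted from the 5′ end, 11 were identical. The other 10 positions differ, so reads of the pair are distinguishable beyond the seed. Of the 343 listed miRNAs with a mature sequence in that RefSeq table, no other carried the seed of miR-221-3p and miR-222-3p, and none shared a seed with either arm of miR-126a.

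The precursors of the pair are shown for the place of the measured 3p arm, which is in capitals. They are direct neighbours in the GRCr8 gene order, on the X chromosome.
mir-221 precursor: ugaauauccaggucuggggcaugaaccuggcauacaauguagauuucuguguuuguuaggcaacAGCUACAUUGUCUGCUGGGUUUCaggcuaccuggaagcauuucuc
mir-222 precursor: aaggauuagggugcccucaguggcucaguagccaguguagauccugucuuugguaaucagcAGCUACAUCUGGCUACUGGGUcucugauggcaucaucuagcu
In the same annotation Egfl7 spans the precursor of the miR-126a arms, and the locus of miR-126b overlaps that of miR-126a-5p by 17 bases on the opposite strand.

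Total counts over the listed miRNAs ran from 452961 to 2119979 per library. 1 library, PTU replicate 6, stood apart: 66 of the 357 tested miRNAs (18.5%) had their highest level there, where the other libraries held the highest level of 6 to 49 miRNAs. Its total of 1192318 was within the range of the others. The fold changes computed here are therefore given with and without it. In serum, a change in the number of cells that release a miRNA and a change in the amount released per cell cannot be told apart.

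The 4 miRNAs took a small share of the serum counts, and that share was close between groups outside PTU replicate 6. Together they made up 0.741% ± 0.118 of the counts in controls (SD, n = 8) and 0.841% ± 0.387 in PTU pups (SD, n = 6). PTU replicate 6 was at 1.60% and the other 5 PTU libraries averaged 0.688% ± 0.111 (SD, n = 5). miR-126a-3p was the most abundant, with rank 23 to 34 among the 375 miRNAs in control libraries and rank 14 to 33 in PTU libraries. miR-126a-5p followed at rank 37 to 51 in controls and 45 to 56 in PTU, miR-221-3p at rank 87 to 106 and 50 to 100, and miR-222-3p at rank 253 to 291 and 158 to 253. This order held in all 14 libraries, though counts of different miRNAs can be recovered with unequal efficiency.

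No member differed between PTU and control serum at a false discovery rate of 0.05 (edgeR's quasi-likelihood test, Benjamini-Hochberg over 357 miRNAs), a test that 0% of all miRNAs passed. At an unadjusted p under 0.05, 1 of the 4 members was counted, miR-222-3p with a higher PTU mean, where the share was 13.2% of all tested miRNAs in either direction and 7.84% in the higher one. Without PTU replicate 6 it was 2 of 4, miR-222-3p higher and miR-126a-5p lower, where the shares were 6.13% higher and 7.52% lower of the 359 then tested. The median log2 fold change of all tested miRNAs was 0.03, and 0.0047 without PTU replicate 6.

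**Figure D1:**
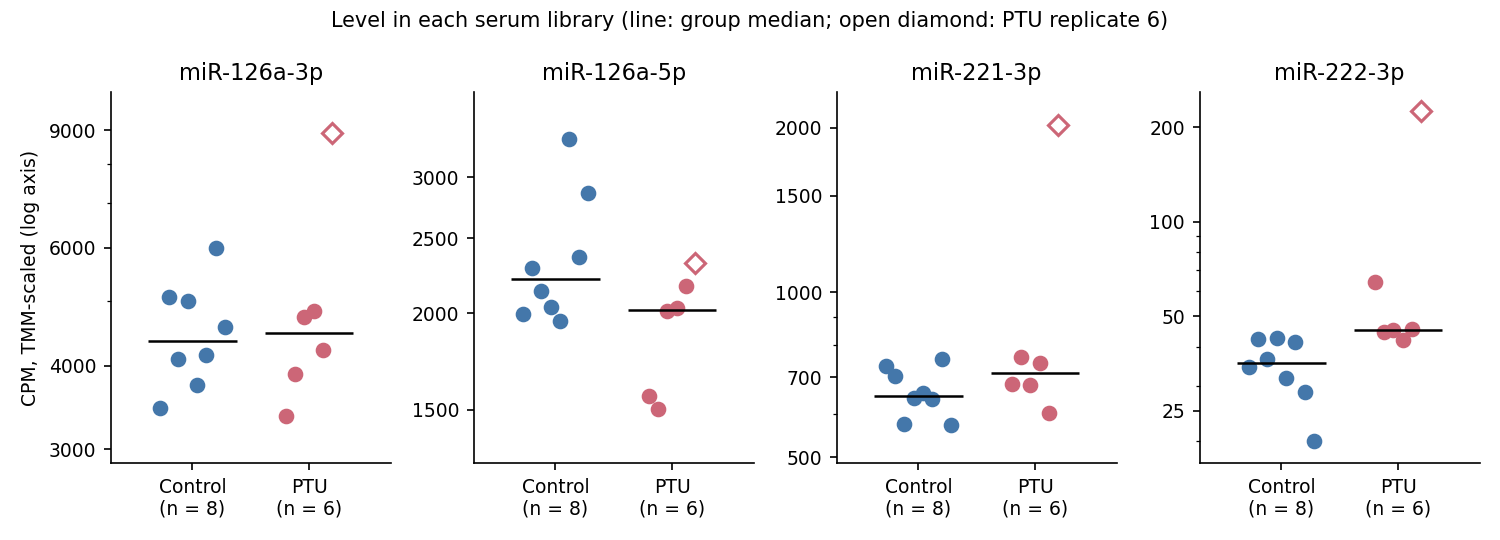
Level of each miRNA in each library (TMM-scaled CPM, on log axes) for 8 Control and 6 PTU pups, with the group median as a line. PTU replicate 6, the open diamond, is the highest library for miR-126a-3p, miR-221-3p and miR-222-3p (8923, 2019 and 226 CPM); the other PTU values of miR-222-3p start at 41.9 CPM, near the top of the control range at 42.5 CPM.

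miR-126a-3p, the strand that restrains Spred1 and Pik3r2, lay in much the same range in both groups. Control libraries ran from 3458 CPM through a median of 4358 to 6004 CPM (CPM, the count relative to a library size scaled by TMM, edgeR's trimmed mean normalization), and PTU libraries from 3367 through 4479 to 8923 CPM. The groups overlapped, with 3 of the 6 PTU libraries above the control median, only PTU replicate 6 lay above the highest control and only PTU replicate 1 below the lowest. The means were 4511 ± 827 CPM in controls (SD, n = 8) and 4997 ± 1999 CPM in PTU (SD, n = 6). edgeR gave a log2 fold change of 0.15 ± 0.19 (SE), a 95% interval from -0.26 to 0.56 and an adjusted p = 0.779. Its sign turned when PTU replicate 6 was left out, to -0.13 ± 0.14 (95% interval -0.42 to 0.17; adjusted p = 0.754 by edgeR). It also turned with upper-quartile factors, at -0.0044, and with limma-voom under quality weights, at -0.13. Quality weights let libraries count unequally, so that value may not be separate from leaving out PTU replicate 6.

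miR-126a-5p, the other strand of the same hairpin, was at the lower end of the control range in PTU serum. Control libraries ran from 1951 CPM through 2213 to 3366 CPM and PTU libraries from 1503 through 2021 to 2321 CPM. The groups overlapped: 5 of the 6 PTU libraries were below the control median, as at least 5 were for 17.4% of all tested miRNAs, and PTU replicates 1 and 2 were below every control. The means were 2376 ± 496 CPM in controls (SD, n = 8) and 1932 ± 330 CPM in PTU (SD, n = 6). By edgeR the log2 fold change came to -0.30 ± 0.15 (SE), with a 95% interval from -0.62 to 0.03, an unadjusted p = 0.0696 and an adjusted p = 0.422. Leaving out PTU replicate 6 gave -0.38 ± 0.16 (95% interval -0.73 to -0.04; unadjusted p = 0.0292, adjusted p = 0.284 by edgeR). This was the member for which PTU replicate 6 stood nearest to the rest, at 1.14 times their median.

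miR-221-3p was the most even of the 4 across pups, apart from 1 library. Control libraries ran from 574 CPM through 647 to 755 CPM. PTU replicate 6 was at 2019 CPM, and the other 5 PTU libraries ran from 603 to 762 CPM, so that outside that library the groups overlapped over nearly their whole range. 5 of the 6 PTU libraries were above the control median, as at least 5 were for 19.6% of tested miRNAs. The log2 fold change of 0.47 ± 0.23 (SE) had a 95% interval from -0.02 to 0.96, an unadjusted p = 0.0587 and an adjusted p = 0.411 by edgeR. With PTU replicate 6 left out it was 0.04 ± 0.10 (95% interval -0.18 to 0.26; adjusted p = 0.922 by edgeR). The means were then 659 ± 66.9 CPM in controls (SD, n = 8) and 693 ± 63.0 CPM in PTU (SD, n = 5).

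miR-222-3p, its seed partner, had the lowest level and the largest difference of the 4. Control libraries ran from 20.0 CPM through 35.5 to 42.5 CPM and PTU libraries from 41.9 through 45.3 to 226 CPM. All 6 PTU libraries were above the control median, as for 3.08% of tested miRNAs, and 5 of 6 were above the highest control, as at least 5 were for 0.84% of tested miRNAs. The groups overlapped only through PTU replicate 4 at 41.9 CPM, with controls at 42.2 and 42.5 CPM just above it. In counts, the control libraries held 15 to 81 and the PTU libraries 38 to 320 of this miRNA.

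The means of miR-222-3p were 34.7 ± 7.82 CPM for the control group (SD, n = 8) and 77.9 ± 72.9 CPM for the PTU group (SD, n = 6). The PTU mean without replicate 6 was 48.3 ± 9.13 CPM (SD, n = 5). This gave a log2 fold change of 1.17 ± 0.36 (SE), a 95% interval from 0.41 to 1.94, an unadjusted p = 0.00484 and an adjusted p = 0.216 by edgeR. It was smaller without PTU replicate 6, at 0.45 ± 0.19 (95% interval 0.04 to 0.85; unadjusted p = 0.0334, adjusted p = 0.292 by edgeR). An exact two-sided permutation test of log2 CPM over all 3003 assignments of libraries to groups gave a difference of 0.84 with p = 0.000999, and 0.0892 after adjustment over the 357 miRNAs. That difference was 0.47 without PTU replicate 6, with an exact permutation p = 0.0117 and 0.208 after adjustment. DESeq2 gave miR-222-3p a log2 fold change of 1.22 ± 0.39 (SE) but no p-value.

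**Figure D2:**
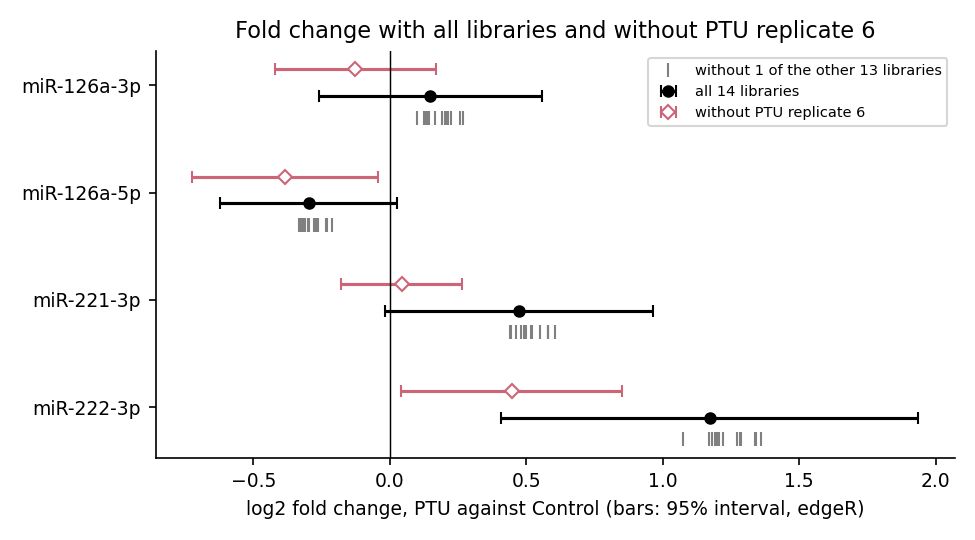
Log2 fold change of each member, PTU against Control, with 95% intervals by edgeR, for all 14 libraries (filled) and without PTU replicate 6 (open); grey ticks are the values with each of the other 13 libraries left out. Leaving out PTU replicate 6 moves miR-221-3p from 0.47 to 0.04 and miR-222-3p from 1.17 to 0.45, while no other single library takes miR-222-3p below 1.07.

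miR-222-3p had the largest difference of the 4 in the authors' deposited table too. That table's group means are those of the same 14 libraries, PTU replicate 6 included, so it is not a separate observation. The authors' deposited table lists miR-222-3p at a log2 fold change of 1.24 (FDR 0.0556), rank 4 by p-value among the 375 miRNAs. The authors' deposited table gives miR-221-3p 0.52 (FDR 0.401), miR-126a-3p 0.19 (FDR 0.818) and miR-126a-5p -0.28 (FDR 0.564).

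The spread between pups differed among the 4 miRNAs. The coefficient of variation over the 8 control libraries was 10.2% for miR-221-3p, and 94.4% of tested miRNAs varied more. It was 18.3% for miR-126a-3p, 20.9% for miR-126a-5p and 22.5% for miR-222-3p, near the median of 23.4% over all tested miRNAs. In PTU pups miR-221-3p varied by 59.5%, and by 9.09% without replicate 6, and the SE of its log2 fold change went from 0.23 to 0.10. Counting error alone, at the mean control count and with each count taken as an independent molecule, would give 1.45% for miR-126a-3p, 2.04% for miR-126a-5p and 3.87% for miR-221-3p. For miR-222-3p, with 35.3 counts on average, it would give 16.8%, not far below the 22.5% seen among controls.

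Both arms of miR-126a come from 1 hairpin, and their ratio within a library does not depend on how libraries are scaled. The 3p arm made up 55.2% to 71.7% of miR-126a counts in control libraries (median 65.7%) and 66.1% to 79.4% in PTU libraries (median 70.3%). Counting error was small beside this if each count is an independent molecule, and would be larger if counts are of reads copied by PCR. On the first reading, the 95% Wilson interval ran from 53.8% to 56.6% in the lowest control, Control replicate 6. It ran from 78.7% to 80.0% in the highest PTU library, PTU replicate 6. All 6 PTU libraries were above the control median, and PTU replicates 2 and 6 were above every control. How many other precursors with both arms listed show such a placing was not counted.

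The log2 ratio of miR-126a-3p to miR-126a-5p averaged 0.93 ± 0.34 in controls (SD, n = 8) and 1.31 ± 0.34 in PTU (SD, n = 6). The difference of 0.38 had an exact two-sided permutation p = 0.0566, and 0.386 after adjustment over the 105 precursors with both arms listed, of which 0% passed at 0.05 after adjustment and 9.52% before it. Of these precursors 22.9% had a larger difference in size, and the median size was 0.21. The difference was 0.26 without PTU replicate 6 (exact permutation p = 0.149, adjusted p = 0.58).

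**Figure D3:**
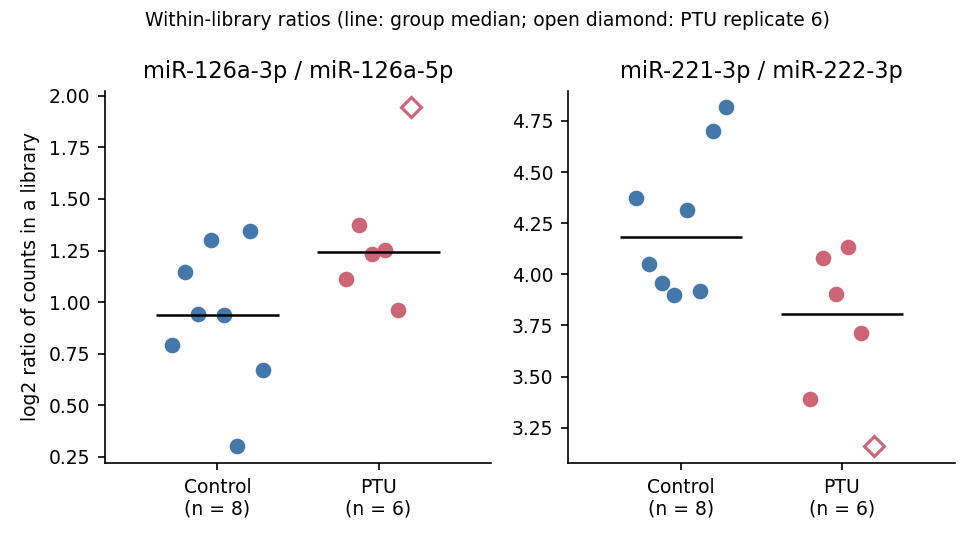
Log2 ratio of counts within each library for miR-126a-3p over miR-126a-5p (left) and miR-221-3p over miR-222-3p (right), for 8 Control and 6 PTU pups, with the group median as a line and PTU replicate 6 as an open diamond. On the right no PTU library lies above the control median of 4.18, and on the left none lies below the control median of 0.94.

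miR-221-3p exceeded miR-222-3p in every library, by 14.9 to 28.2 times in controls and by 8.93 to 17.5 times in PTU pups. No PTU library was above the control median of this ratio, and 3 of the 6, PTU replicates 1, 5 and 6, were below every control. On the log2 scale the ratio averaged 4.25 ± 0.36 in controls (SD, n = 8) and 3.73 ± 0.39 in PTU (SD, n = 6). The difference of -0.52 had p = 0.0233 in an exact two-sided permutation test of this single value. It was -0.41 without PTU replicate 6 (exact permutation p = 0.0606) and -0.46 without PTU replicate 1 (exact permutation p = 0.0559). The ratio was chosen with the values of both miRNAs known.

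Over the 14 libraries, after taking out the group means, the levels of miR-222-3p on the log2 CPM scale were most like those of miR-221-3p (Pearson r = 0.86), miR-484 (0.86) and miR-27a-3p (0.83). This likeness rested on PTU replicate 6. Without it the correlation of miR-222-3p with miR-221-3p was 0.12 over 13 libraries, rank 116 of 356. For miR-221-3p the nearest were miR-23b-3p, miR-100-5p and miR-27a-3p, at 0.96, 0.94 and 0.93 over 14 libraries, and at 0.61, 0.67 and 0.06 without PTU replicate 6.

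The arms of miR-126a had other miRNAs as their nearest neighbours, not each other. Their correlation was 0.47 over 14 libraries and 0.35 without PTU replicate 6. miR-126a-5p was most like miR-192-5p, miR-27b-3p and miR-30a-5p, at 0.86, 0.84 and 0.80, and still at 0.84, 0.81 and 0.77 without PTU replicate 6. miR-126a-3p was most like miR-335, miR-30b-5p and miR-22-3p, at 0.89, 0.88 and 0.87. Without PTU replicate 6 these became 0.75, 0.65 and 0.68, at ranks 9, 27 and 24 of 356. Its nearest were then miR-411-5p, miR-350 and miR-450a-5p, at 0.84, 0.82 and 0.82, which ranked 64, 77 and 133 over 14 libraries. All these correlations are descriptions over libraries that share 1 scaling.

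Other miRNAs linked to endothelium and vessel growth were followed as a list of 21, of which all 21 were tested. The log2 fold change was positive for 14 (list median 0.18), against 206 of 357 and a median of 0.03 over all tested miRNAs. Leaving out PTU replicate 6, the count was 8 and the median -0.07, against 183 of 359 and 0.0047. None passed the adjusted threshold by edgeR, with or without that library. At an unadjusted p under 0.05, miR-18a-5p, of the miR-17-92 cluster, had a log2 fold change of 0.40 ± 0.19 and miR-27b-3p, which promotes vessel sprouting in zebrafish, had -0.38 ± 0.11 (SE). Without PTU replicate 6 these were 0.49 ± 0.17 and -0.44 ± 0.11 (SE), and 5 of the 21 were under that p, 2 higher and 3 lower. Of all tested miRNAs 13.6% were under that p without PTU replicate 6 (6.13% higher, 7.52% lower), and 13.2% with all libraries. The others of the 5 were let-7f-5p at 0.40 ± 0.17, miR-23a-3p at -0.28 ± 0.10 and miR-27a-3p at -0.30 ± 0.10 (SE). With all libraries those 3 had 0.33 ± 0.18, 0.07 ± 0.20 and 0.43 ± 0.33 (SE), so miR-23a-3p and miR-27a-3p turned sign.

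In PTU replicate 6 the summed level of this list was 48025 CPM, where the controls ran from 29391 to 34599 CPM. Of the 21, 7 had their highest level in that library, as 18.5% of all tested miRNAs did. Among those 7, chosen after their values were seen, miR-322-5p was at 3338 CPM against a control mean of 580 ± 104 CPM (SD, n = 8). miR-27a-3p was at 3228 CPM against 817 ± 72.8 CPM (SD, n = 8), and miR-23b-3p at 1188 against 298 ± 33.6 CPM (SD, n = 8). miR-10b-5p, also on this list, was at 1674 CPM there, below its control mean of 2737 ± 598 CPM (SD, n = 8).

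**Figure D4:**
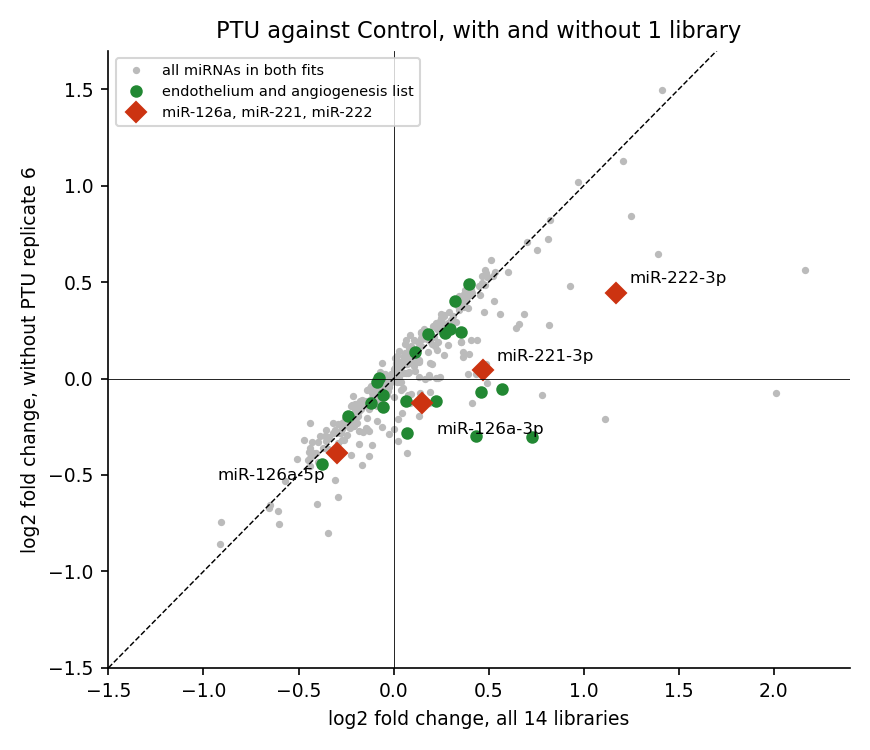
Log2 fold change, PTU against Control, with all 14 libraries (horizontal) and without PTU replicate 6 (vertical), for all miRNAs in both fits (grey), the 21 of the endothelium and angiogenesis list (green) and the 4 members (red); the dashed line marks equal values. miR-221-3p and miR-222-3p lie below the line, at 0.04 and 0.45 against 0.47 and 1.17, and miR-126a-5p lies close to it.

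Markers of other cells that release miRNAs into serum moved in part with the same library. The 4 vascular smooth muscle miRNAs, both arms of miR-143 and miR-145, all had their highest level in PTU replicate 6, as 18.5% of all tested miRNAs did. There miR-145-5p was at 930 CPM, against 347 ± 68.2 CPM in controls (SD, n = 8). The summed level of that list ran from 10169 to 15087 CPM in controls and from 9649 to 15878 CPM in PTU, the highest being PTU replicate 6. Over all libraries miR-143-3p had a log2 fold change of -0.14 ± 0.13, miR-145-5p 0.39 ± 0.23 and miR-143-5p 0.07 ± 0.30 (SE), and the median of the 4 was -0.03. Without PTU replicate 6 the values were -0.26 ± 0.11, 0.03 ± 0.14 and -0.38 ± 0.22 (SE), and the median was -0.32. Of the 4, miR-143-3p alone was then under an unadjusted p of 0.05. Of all tested miRNAs 13.6% were under that p without PTU replicate 6, and 7.52% with a lower PTU mean.

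Of the 7 platelet miRNAs, 4 had a positive log2 fold change (median 0.02) and none passed the adjusted threshold. The highest level of 4 of the 7 was in PTU replicate 6, as for 18.5% of all tested miRNAs. Without that library 1 of the 7 was positive, miR-103-3p, and the median was -0.12. Their summed level was 70641 to 89861 CPM in controls and 68718 to 83204 CPM in PTU, and was lowest in PTU replicate 6, where the abundant miR-199a-3p was at 30520 CPM. miR-103-3p had a log2 fold change of 0.53 ± 0.15 and miR-199a-3p -0.29 ± 0.13 (SE), and 0.40 ± 0.15 and -0.23 ± 0.11 without PTU replicate 6.

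Of the 7 leukocyte miRNAs 3 were positive (median -0.12), with summed levels of 10020 to 13428 CPM in controls and 9080 to 20383 CPM in PTU; miR-142-3p had 0.97 ± 0.37, miR-155-5p -0.44 ± 0.17 and miR-146a-5p -0.40 ± 0.15 (SE). Without PTU replicate 6, 2 were positive (median -0.21), and these 3 had 1.02 ± 0.40, -0.36 ± 0.15 and -0.33 ± 0.13 (SE). miR-150-5p then came under an unadjusted p of 0.05 as well, at -0.27 ± 0.12 against -0.13 ± 0.14 with all libraries (SE). Of all tested miRNAs 13.6% were under that p without PTU replicate 6, and 13.2% with all libraries.

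Red cell miRNAs had higher PTU means than control means, and miR-126 and the pair also occur in blood cells. The log2 fold change was positive for all 7 tested erythroid miRNAs (median 0.82, and 0.44 without PTU replicate 6), against 206 of all 357 tested. Their summed level was 82380 to 134838 CPM in controls and 68040 to 159535 CPM in PTU. None passed the adjusted threshold. miR-144-3p, miR-363-3p, miR-451-5p and miR-144-5p were under an unadjusted p of 0.05, as 7.84% of all tested miRNAs were with a higher PTU mean. Without PTU replicate 6 only both arms of miR-144 were under it, where the share was 6.13%. miR-144-3p was then at 1.13 ± 0.35 (SE), where all libraries gave 1.21 ± 0.32. miR-451-5p went from 0.93 ± 0.34 to 0.48 ± 0.30 and miR-363-3p from 0.82 ± 0.31 to 0.28 ± 0.20 (SE).

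In PTU replicate 6 miR-451-5p was at 17616 CPM, against 4048 ± 1136 CPM in controls (SD, n = 8). Not all red cell miRNAs were raised there. miR-16-5p was at 62128 CPM against 92440 ± 15454 CPM in controls (SD, n = 8), and miR-451-3p at 8.46 against 8.99 ± 4.09 CPM (SD, n = 8). The summed level of the 7 was 90520 CPM in that library, within the control range. Of the 7, 2 had their highest level there, as 18.5% of all tested miRNAs did. A common gauge of red cell RNA, miR-451-5p over miR-23a-3p on the log2 scale, averaged 0.12 ± 0.57 in controls (SD, n = 8) and 0.87 ± 0.78 in PTU (SD, n = 6). It was 0.80 ± 0.85 without PTU replicate 6 (SD, n = 5). Its denominator, miR-23a-3p, is on the endothelium list and was itself highest in PTU replicate 6, at 7455 CPM against 3546 ± 289 CPM in controls (SD, n = 8), so the ratio there does not follow miR-451-5p alone. With that ratio as a covariate the log2 fold change of miR-222-3p was 1.03 ± 0.46, of miR-221-3p 0.36 ± 0.28, of miR-126a-5p -0.27 ± 0.19 and of miR-126a-3p -0.0021 ± 0.23 (SE; adjusted p = 0.469, 0.732, 0.716 and 0.997 by edgeR). The same fit without PTU replicate 6, chosen after the data were seen, gave 0.53 ± 0.22, 0.04 ± 0.12, -0.36 ± 0.19 and -0.21 ± 0.16 (SE; adjusted p = 0.322, 0.897, 0.494 and 0.639 by edgeR). The lists share members: miR-92a-3p is on the endothelium and red cell lists, miR-24-3p on the endothelium and platelet lists and miR-223-3p on the platelet and leukocyte lists. The part of platelets, leukocytes and smooth muscle in these levels was not tested.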

How the data were processed

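Small RNA libraries were made from pup serum with the QIAseq miRNA kit and 22 PCR cycles, per the labels' protocols; nothing used here says if counts are of reads or of molecules. The authors deposited raw counts for 375 miRNAs, and their own log2 fold changes and mean log2 CPM, p-values and FDR, and group means (a linear signal of counts), per the file headers. The submitters' processing notes name edgeR with no version; for the aligner and miRNA reference, the sources used here give nothing. Each column was tied to a sample through the identifier in its title.

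Counts were filtered with filterByExpr (357 kept), scaled by TMM and tested with edgeR 4.0.16 (glmQLFit, glmQLFTest; R 4.3.3), all 14 libraries, no covariate. CPM values are TMM-scaled; log2 CPM used a prior count of 2. Ratios added 0.5 to each count and were compared by exact permutation over all 3003 assignments. Alternatives were other scalings, filters (including 10 counts in at least 10 libraries), the likelihood ratio test and limma-voom with quality weights (limma 3.58.1). Others were DESeq2 1.42.0, a covariate, a replicate block and each library left out. The exact test, the permutation test per miRNA and the covariate fit without PTU replicate 6 were added after the data were seen. Libraries of a group differed by more than sampling noise (smallest chi-square per degree of freedom 23.1), so each is 1 replicate. The procedure was tested on simulated data. Members and lists were chosen with earlier results of these data known. Named were all members, list members with an unadjusted p under 0.05 or else the 3 most abundant, and the 3 nearest miRNAs by correlation; others are said to be chosen after their values were seen. RefSeq holds the miR-126a arms under the symbol Mir126b, so sequences were matched by mature name.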

Additional observations from a re-analysis of the deposited data

Results flagged for a closer look

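PTU replicate 6 lay far from the other PTU libraries for 3 of the 4 miRNAs. It was at 8923 CPM for miR-126a-3p, where the next PTU library had 4839 CPM. It was at 2019 CPM for miR-221-3p, where the next had 762 CPM, and at 226 CPM for miR-222-3p, where the next had 64.4 CPM. The 4 miRNAs together took 1.60% of its counts, where the next PTU library had 0.787%. For the log2 ratio miR-451-5p/miR-23a-3p, Control replicate 6 stood apart at -1.23, where the next control had 0.01. In all, 16 sets of libraries were examined in this way, and chance marks about 1 in 20; the sets are not independent, since they share libraries.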

How the results depend on the processing

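No member passed a false discovery rate of 0.05 under any alternative that gave an adjusted p. DESeq2 gave a fold change but no p-value for miR-222-3p. miR-221-3p and miR-222-3p stayed higher and miR-126a-5p lower in all alternatives, with adjusted p from 0.3 to 0.922, 0.0892 to 0.66 and 0.211 to 0.716. With 1 library left out the log2 fold change ran from -0.13 to 0.27 for miR-126a-3p, -0.38 to -0.21 for miR-126a-5p, 0.04 to 0.61 for miR-221-3p and 0.45 to 1.36 for miR-222-3p; the lowest value of each came without PTU replicate 6. miR-126a-3p turned sign with upper-quartile factors (-0.0044) and with limma-voom under quality weights (-0.13). It also turned with the red cell covariate (-0.0021, and -0.21 without PTU replicate 6 as well). Upper-quartile factors moved the median of all miRNAs to -0.08. Counts of all miRNAs called higher were 0 in the main test and 1 with DESeq2, 3 with the likelihood ratio test and 3 with the exact test without a filter; with 1 library left out the count called lower was 0 to 1, with the 1 without PTU replicate 5. At an unadjusted p under 0.05 the main test counted 28 higher and 19 lower, upper-quartile factors 13 and 38, and no factors 44 and 9. The ratio of miR-221-3p to miR-222-3p had a log2 difference of -0.61 to -0.41 with 1 library left out, and with the replicate number as a block -0.36 (exact sign-flip p = 0.188). Replicate numbers were not taken to pair the libraries. Of 6 same-numbered pairs, 2 had correlated deviations over 0.1. Differently numbered pairs were not compared, so this check cannot decide on pairing. With that replicate block miR-222-3p had 0.69, miR-221-3p 0.32, miR-126a-3p 0.16, miR-126a-5p -0.24 and the arm ratio of miR-126a 0.41. The block used only replicate numbers found in both groups, so Control replicates 7 and 8 were left out. Those were the lowest controls for miR-222-3p, at 28.6 and 20.0 CPM, so blocking and their loss cannot be told apart here. The causes of these shifts were not tested. Depth limits miR-222-3p most.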

Other observations

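Control replicate 6 had the highest level of miR-126a-5p of all 14 libraries, 3366 CPM, while its miR-126a-3p was at 4150 CPM, below the control median of 4358 CPM. It also had the lowest share of the 3p arm, 55.2%, and the lowest log2 ratio miR-451-5p/miR-23a-3p, -1.23. Without it the log2 fold change of miR-126a-5p was -0.21 and the arm ratio difference 0.29.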
